A study of Mus musculus with 2 samples.

Results

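The secretory pathway and vesicle coat genes described here are 64 mouse genes that match a rule on symbols. Levels are not part of the rule, but it was chosen with earlier results of these data known. They are the numbered Sec genes, Ssr1 to Ssr4, Spcs1 to Spcs3, the numbered Srp genes without the Srpk kinases, the numbered Pdia and Tmed genes, and the COPI coat genes Copa, Copb1, Copb2, Cope, Copg1, Copg2, Copz1 and Copz2. They were picked from the 22802 gene symbols with a count in either library. All 64 had at least 1 count in the embryoid library and 63 in the blastocyst library, where Sec14l5 had none.

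Single cells of 2 mouse samples were sequenced with the BD Rhapsody whole transcriptome kit, with 1 library of each. The embryoids were aggregates of 10000 embryonic stem (ES) cells, derived from the Lifeact-RFPRuby strain, with 50000 to 80000 XTE cells. XTE cells had been reprogrammed from ES cells carrying Gata6-H2B:venus and were kept in a medium with the GSK3 inhibitor CHIR99021, BMP4, Fgf4, Heparin and Activin, whereas the ES cells had been kept in serum with CHIR99021, the MEK inhibitor PD0325901 and Lif. The aggregates spent 48 h in microwells and another 48 h in repellent plates. The blastocysts were whole B6C3F1 embryos of embryonic day 4.5, whose number the labels do not give. Both materials were dissociated with TrypLE, and each library was prepared from 6000 cells. The series set out to compare the epiblast, the primitive endoderm and the trophectoderm of the blastocyst with the embryoid cells.

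Proteins bound for secretion or for membranes enter the endoplasmic reticulum (ER) while they are being made. The signal recognition particle brings the ribosome to the Sec61 channel, signal peptidase removes the leader, and protein disulfide isomerases form the disulfide bonds of the new chain. Cargo then leaves the ER in vesicles with a COPII coat, p24 proteins (the Tmed genes) help to sort it, and vesicles with a COPI coat bring escaped ER proteins back from the Golgi. Primitive endoderm is a secreting tissue: it lays down the laminin and collagen IV of the early basement membranes, and its derivatives secrete serum proteins.

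The deposited counts are of unique molecular identifiers (UMIs), which mark single captured RNA molecules. Filtering left 5328 cells of 5546 barcodes for the embryoid and 1080 of 1288 for the blastocyst, with medians of 4768 and 9273 UMIs per cell. The 2 files shared 9 barcodes, of which 7 were among the analysed cells. Cells were clustered without the members and named from marker genes: EPI-like where epiblast markers were high, PrE-like for primitive endoderm and TE-like for trophectoderm. The blastocyst library gave 257 EPI-like, 447 PrE-like and 376 TE-like cells. The embryoid library gave 3728 PrE-like cells in 6 clusters, 108 EPI-like cells, 113 cells like fibroblasts or extraembryonic mesoderm (FIB-like) and 1379 cells in 3 clusters that stayed unnamed. No embryoid cluster took the TE-like name: the 14 trophectoderm markers together reached 150.0 to 1241 CPM (counts per 1000000 UMIs of a summed profile) in the embryoid clusters against 9681 CPM in the blastocyst TE-like cells. The labels describe XTE cells by their origin and the series title calls them trophectoderm-like, so the labelled type and the markers differ here.

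For each class the UMIs of its cells were summed and scaled to CPM. Ratios are log2 ratios after adding 1 CPM to both levels, and a ratio is given with an exact 95% interval computed from both UMI counts. Such intervals cover counting error only. With 1 library per group there is no replicate spread and no p-value, and what separates the libraries technically cannot be told apart from what separates embryoids and embryos. A member counted as measured in a comparison when its mean over both profiles was at least 10 CPM.

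PrE-like cells devoted the largest share of their RNA to these genes, and the share was nearly the same in both libraries. In the blastocyst the 64 members made up 1.079% of the UMIs of PrE-like cells (95% interval 1.069 to 1.089), 0.652% of those of EPI-like cells (0.642 to 0.662) and 0.5003% of those of TE-like cells (0.493 to 0.508). In the embryoid the share was 1.103% in PrE-like cells (1.098 to 1.107), 0.653% in EPI-like cells (0.635 to 0.672) and 0.884% in FIB-like cells. The spread over single cells left the PrE-like and TE-like quartile ranges apart: the quartiles were 0.857% and 1.205% for blastocyst PrE-like cells and 0.421% and 0.562% for TE-like cells. Both blastocyst PrE-like clusters (1.030% and 1.197%) stood above both EPI-like clusters (0.636% and 0.677%) and all 3 TE-like clusters (0.482%, 0.507% and 0.576%). Depth and mitochondrial share, a sign of RNA quality, differed between the classes as follows. The median cell had 9861 UMIs in the EPI-like, 9410 in the PrE-like and 8606 in the TE-like class, and the median mitochondrial share was 7.26% and 9.97% in the PrE-like clusters, 8.60% and 10.5% in the EPI-like clusters and 8.05% to 12.3% in the TE-like clusters. Their part in the result was not tested.

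**Figure D1:**
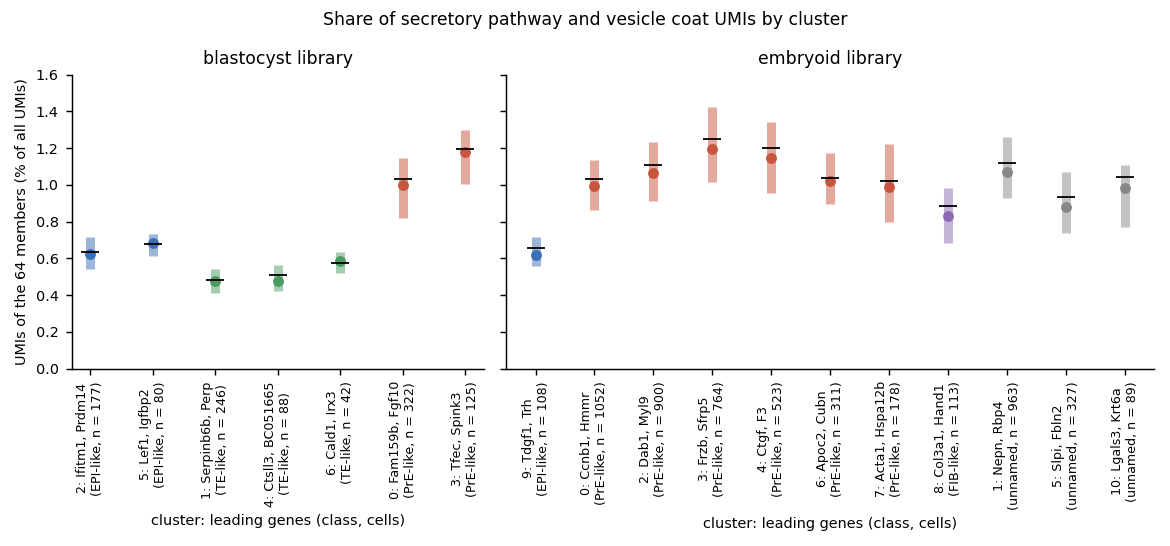
UMIs of the 64 members as a percentage of all UMIs (vertical axis) in each cluster of the blastocyst (left) and embryoid (right) libraries; the dash is the share in the summed cluster, the dot the median cell and the bar the quartiles over cells, coloured by class. The PrE-like clusters stand between 1.02% and 1.25%, and the EPI-like and TE-like clusters between 0.482% and 0.677%.

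Most of the machinery was somewhat more abundant in blastocyst PrE-like than in EPI-like cells. Of 51 measured members, 11 exceeded the EPI-like level by 2-fold or more, or 21.6%, where the same held for 12.9% of all 8244 measured genes. Only Sec14l1 stood at least 2-fold lower, beside 9.46% of all genes. The median log2 ratio was 0.75 over the members and 0.02 over all genes, and 46 of the 51 members had a ratio above 0, against 51.7% of all genes. At a lower threshold of 1.5-fold, 31 members were higher (22.4% of all genes) and 1 lower (17.5% of all genes). The 13 members below the level filter were Srp54b, Srp54c, Sec61a2, Sec16b, Sec31b, Sec22c, Tmed3, Tmed6, Copz2, Sec1, Sec14l2, Sec14l4 and Sec14l5.

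More members passed 2-fold against TE-like cells, where genes in general were also shifted. Of 49 measured members, 22 exceeded the TE-like level by 2-fold or more, or 44.9%, beside 19.8% of all genes, and 0 were at least 2-fold lower, beside 10.7%. At 1.5-fold, 34 were higher (37.5% of all genes) and 1 lower (15.8% of all genes). The median log2 ratio was 0.86 over the members and 0.36 over all genes, and 47 of 49 members were above 0 (67.0% of all genes). That general shift depends on the scaling. Scaling profiles by the median of gene ratios moved PrE-like over TE-like ratios down by 0.34. With it 11 members were at least 2-fold higher and 1 lower, and the members' median was 0.53. The share of all genes 2-fold apart from TE-like cells was not counted under this scaling. PrE-like cells had the highest level of the 3 blastocyst classes for 44 of 49 members (41.4% of all genes), and for 38 under the median-of-ratios scaling (32.4% of all genes). The other 5 were Ssr2, Sec16a and Sec14l1, highest in EPI-like cells, and Sec11c and Copg2, highest in TE-like cells. Copa, Copb1, Pdia3, Pdia5, Pdia6, Sec24d, Sec61a1, Ssr1, Ssr3 and Tmed9 stood 2-fold or more above each of the other classes in PrE-like cells, or 10 of 49 members beside 6.75% of all genes. Under the median-of-ratios scaling 6 did so, beside 5.34% of all genes.

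The genes of the signal recognition particle had the lowest median ratio of the machinery groups over EPI-like cells. None of the 5 measured SRP genes was 2-fold apart in either comparison. Of all genes, 12.9% were higher and 9.46% lower against EPI-like cells, and 19.8% and 10.7% against TE-like cells. The SRP median log2 ratios of PrE-like cells were 0.37 over EPI-like and 0.52 over TE-like cells. Srp14, which binds the Alu domain of the particle's RNA, stood at 148 CPM in EPI-like, 154 CPM in PrE-like and 150.3 CPM in TE-like cells. Srp68 and Srp72 form a pair on the particle's S domain, and both were highest in PrE-like cells. Srp68 stood at 69.2, 98.2 and 56.3 CPM in EPI-like, PrE-like and TE-like cells, and Srp72 at 178.8, 247 and 146 CPM. Srp54b and Srp54c are near-identical copies next to each other on chromosome 12, so their counts are uncertain; they had 3 to 14 UMIs in each blastocyst class, too few for a comparison.

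At the channel itself, the pore subunit Sec61a1 was the only gene 2-fold higher in PrE-like than in EPI-like cells. Its level was 95.5 CPM in EPI-like, 209.5 CPM in PrE-like and 86.2 CPM in TE-like cells, so that PrE-like cells exceeded the others by log2 ratios of 1.13 (0.93 to 1.34) and 1.27 (1.09 to 1.47). Its paralogue Sec61a2 had 5 to 8 UMIs in each class. The small subunits Sec61b (177, 232 and 154 CPM) and Sec61g (57.5, 65.0 and 35.4 CPM) differed less. Sec62 and Sec63 assist the import of chains that reach the channel after synthesis. Sec62 was at 309, 493 and 242 CPM in EPI-like, PrE-like and TE-like cells, and Sec63 at 51.4, 94.6 and 88.4 CPM, so that Sec63 was nearly level between PrE-like and TE-like cells.

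The 4 subunits of the translocon-associated protein complex (TRAP, the Ssr genes), which sits beside the channel, did not share a pattern. Ssr3, on chromosome 3 (GRCm38 65379655 to 65392623), was at 715.5 CPM in PrE-like cells against 239 CPM in EPI-like and 245 CPM in TE-like cells, with log2 ratios of 1.58 (1.46 to 1.71) and 1.54 (1.44 to 1.66). Ssr1 stood at 345 CPM in PrE-like, 157 CPM in EPI-like and 118 CPM in TE-like cells. Ssr2 was slightly higher in EPI-like cells (559 CPM) than in PrE-like cells (513 CPM), with a ratio of -0.12 (-0.22 to -0.03), and was the TRAP gene with the lowest relative level in TE-like cells (175 CPM; TE-like over EPI-like -1.67). Ssr4 was at 140 CPM in EPI-like, 235 CPM in PrE-like and 157.5 CPM in TE-like cells.

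Signal peptidase has a catalytic subunit that comes in 2 forms, Sec11a and Sec11c, and their highest levels were in different lineages. Sec11a stood at 81.0 CPM in EPI-like, 141 CPM in PrE-like and 75.3 CPM in TE-like cells. Sec11c stood at 51.7, 92.9 and 116 CPM in the same order, and was the only member to exceed the EPI-like level in TE-like cells by 2-fold (log2 ratio 1.15, 0.88 to 1.45), as 14.1% of all genes did. Within the trophectoderm its level ran from 58.7 CPM in cluster 6 and 105 CPM in cluster 1 to 179 CPM in cluster 4. The accessory subunit Spcs2 was 2-fold higher in PrE-like than in TE-like cells, at 337 against 161 CPM.

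The disulfide isomerases had the highest median PrE-like over TE-like ratio of the role groups, 2.77 on the log2 scale. All 4 measured Pdia genes were at least 2-fold higher in PrE-like than in TE-like cells (19.8% of all genes). Of them 3 were also at least 2-fold higher than in EPI-like cells (12.9% of all genes). Pdia5, on the minus strand of chromosome 16 (35397312 to 35490873), stood at 233.6 CPM in PrE-like, 63.5 CPM in EPI-like and 25.1 CPM in TE-like cells. Its log2 ratios were 1.86 (1.64 to 2.12) and 3.17 (2.91 to 3.55). Pdia6, which acts with the chaperone Hspa5, stood at 648 CPM in PrE-like, 277 CPM in EPI-like and 84.5 CPM in TE-like cells. Pdia3, the isomerase of the calnexin and calreticulin cycle for glycoproteins, was at 1131, 546 and 282 CPM. Pdia4 stood at 151, 80.3 and 23.98 CPM in the 3 classes in that order, a ratio of 0.90 (0.69 to 1.15) over EPI-like cells, just short of 2-fold. In TE-like cells Pdia4, Pdia5 and Pdia6 were also at least 2-fold below EPI-like cells.

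Thinning each cell to 2000 UMIs gave the same order for Pdia5 at equal depth. A Pdia5 UMI was present in 32.9% of 411 blastocyst PrE-like cells (28.3 to 37.6), in 9.31% of 247 EPI-like cells (5.995 to 13.6) and in 3.85% of 364 TE-like cells (2.12 to 6.37). In the embryoid the share was 26.8% of 3496 PrE-like cells (25.3 to 28.3) and 10.6% of 104 EPI-like cells (5.4 to 18.1). Unthinned, the shares were 74.7%, 41.2% and 17.0% in the blastocyst and 51.2% and 24.1% in the embryoid.

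Promoters were searched for the sequence elements by which ER stress factors are known to act on folding genes. The ER stress response element is CCAAT and CCACG with 9 free bases between them on either strand. It occurred in the 250 bases before the start of 0.113% of 32851 RefSeq promoters (GRCm38.p6), and for 0.1295% of 27025 genes. Of the 55 members in that table only Pdia6 held it, 98 to 80 bases before its start. Of 22 other ER folding genes 7 held it, among them Hspa5, the main ER chaperone, whose level in the blastocyst followed the same order as that of Pdia6: 2440 CPM in PrE-like, 926 CPM in EPI-like and 424 CPM in TE-like cells. Both windows are shown on the plus strand with the element in capitals, Pdia6 from chr12:17266471-17266529 and Hspa5 from chr2:34772005-34772063, because they show the same element in a member and in a well known target.
Pdia6: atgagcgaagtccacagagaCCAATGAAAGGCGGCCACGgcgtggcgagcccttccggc
Hspa5: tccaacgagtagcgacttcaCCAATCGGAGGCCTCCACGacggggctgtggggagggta
The related element, ATTGG and CCACG with 1 free base between them, was in none of the 55 member windows and in 0.0304% of promoters. The unfolded protein response element, TGACGTGG on either strand, was in 0.563% of promoters, or 0.603% of genes. It was in the windows of 3 of the 55 members, Copb1, Sec16b and Sec24d. By the GENCODE positions these 3 elements lie just inside the gene, after an earlier start than that of RefSeq. A match is only a match of letters, and no binding was measured here.

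Among the COPII genes, the cargo-binding subunit Sec24d had the largest PrE-like ratios. Sec24d, on chromosome 3 (123267455 to 123365641), stood at 23.8 CPM in PrE-like cells, 3.42 CPM (9 UMIs) in EPI-like cells and 0.28 CPM (1 UMI) in TE-like cells. The log2 ratios were 2.48 (1.81 to 3.97) over EPI-like and 4.28 over TE-like cells, the latter with a counting interval of 3.90 to 11.7. After thinning, a Sec24d UMI was present in 4.87% of PrE-like (3.00 to 7.42), 1.21% of EPI-like (0.251 to 3.51) and 0 of 364 TE-like cells, a count of 0 that allows up to 1.01%; unthinned, the shares were 17.0%, 3.50% and 0.266%. Sec24a (68.2, 36.1 and 30.7 CPM in PrE-like, EPI-like and TE-like cells) and Sec24c (104, 57.8 and 57.7 CPM) were higher in PrE-like cells by less than 2-fold over EPI-like cells. Sec24b stood at 22.3, 12.2 and 17.8 CPM in the same order.

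Sec23 is the partner of Sec24 in the inner coat. Sec23a, whose loss in humans impairs collagen secretion, stood at 139 CPM in PrE-like, 72.7 CPM in EPI-like and 51.6 CPM in TE-like cells. Its paralogue Sec23b stood at 126, 114 and 99.5 CPM, with a ratio over EPI-like cells of 0.15 (-0.06 to 0.36). The outer coat genes differed in the same direction: Sec31a was at 368, 249.9 and 119 CPM and Sec13 at 166, 128 and 94.5 CPM in PrE-like, EPI-like and TE-like cells. Sec31b had 1 to 4 UMIs in each class. Sec16a, the scaffold of ER exit sites, differed by less than counting error between EPI-like (46.4 CPM) and PrE-like cells (41.2 CPM; -0.17, -0.51 to 0.18) and stood 2-fold or more below EPI-like cells in TE-like cells (19.2 CPM). The SNARE genes Sec22a and Sec22b, which act in fusion between ER and Golgi, were not 2-fold apart, with PrE-like over EPI-like ratios of 0.77 and 0.73.

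Of the p24 genes, Tmed9 and Tmed7 were at least 2-fold higher in PrE-like than in EPI-like cells, at 451 against 223 CPM and 129 against 60.1 CPM. In TE-like cells they stood at 194 and 71.7 CPM. Tmed10 and Tmed2, which form the core of p24 complexes, were at 113 and 69.1 CPM in PrE-like, 66.2 and 36.1 CPM in EPI-like and 61.6 and 41.3 CPM in TE-like cells. Tmed3 lay below the level filter against EPI-like cells, yet its 70 UMIs in PrE-like cells (17.0 CPM) compare with 7 UMIs in EPI-like (2.66 CPM) and 5 UMIs in TE-like cells (1.39 CPM). Tmed1 and Tmed8 were near 10 CPM and did not differ beyond counting error between PrE-like and EPI-like cells.

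Of 7 measured COPI genes, 2 were at least 2-fold higher in PrE-like than in EPI-like cells (12.9% of all genes). Over TE-like cells 4 were (19.8% of all genes). Copa, the alpha subunit, reached 389 CPM in PrE-like cells against 180.3 CPM in EPI-like and 187 CPM in TE-like cells, with log2 ratios of 1.11 (0.96 to 1.26) and 1.05 (0.92 to 1.19). Copb1 followed at 275.5, 135 and 132 CPM and Copb2 at 255, 134 and 114 CPM. The gamma subunit is made from either of 2 genes, and these ran opposite ways between PrE-like and TE-like cells. Copg1 stood at 134 CPM in PrE-like, 84.5 CPM in EPI-like and 41.5 CPM in TE-like cells, a PrE-like over TE-like ratio of 1.66 (1.42 to 1.96). Copg2 stood at 17.5, 20.2 and 34.0 CPM, a ratio of -0.92 (-1.40 to -0.53). Exons of Copg2 overlap those of Mest on the other strand, but Mest itself had only 1.46, 4.57 and 1.95 CPM in these classes. Copz2 had 16 UMIs in PrE-like, 3 in EPI-like and 1 in TE-like cells.

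Some symbols that match by name lie outside the secretory machinery: the Sec14l genes code for lipid-binding proteins and Sec1 for a relative of the fucosyltransferases. Sec14l1 was the only such member above the level filter. It stood at 145 CPM in EPI-like, 70.8 CPM in PrE-like and 29.0 CPM in TE-like cells, the reverse order of the machinery between EPI-like and PrE-like cells, with a ratio of -1.03 (-1.26 to -0.81).

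**Figure D2:**
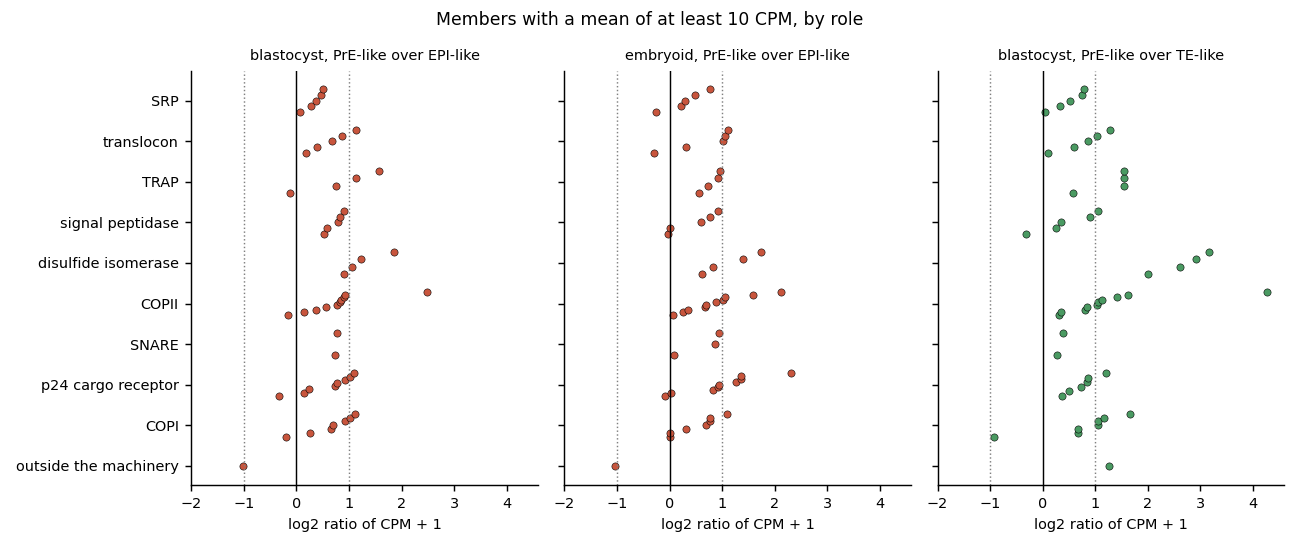
Log2 ratio of CPM + 1 (horizontal axis) for each member with a mean of at least 10 CPM, grouped by role, for blastocyst PrE-like over EPI-like (left), embryoid PrE-like over EPI-like (middle) and blastocyst PrE-like over TE-like cells (right); dotted lines mark 2-fold. Over TE-like cells Sec24d (4.28) lies farthest right, followed by Pdia5 (3.17), and 0 points lie at or beyond 2-fold on the low side. In the left and middle panels Sec14l1 is the only point there.

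Between TE-like and EPI-like cells the members as a whole followed the general shift of the genes. Of 48 measured members, 1 was higher in TE-like cells by 2-fold (14.1% of all genes) and 8 were lower by 2-fold (21.9% of all genes), and 17 were above 0 (37.4% of all genes). At 1.5-fold, 3 were higher (20.8% of all genes) and 10 lower (37.2% of all genes). The 8 lower by 2-fold were Pdia4, Pdia5, Pdia6, Ssr2, Sec16a, Sec31a, Copg1 and Sec14l1. The median log2 ratio was -0.19 beside -0.28 over all genes, and it turned to 0.12 under the median-of-ratios scaling, with 3 members higher and 4 lower. The matching shares of all genes were not counted under that scaling.

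The embryoid cells showed a similar general excess in PrE-like over EPI-like cells. Of 53 measured members, 14 exceeded the EPI-like level by 2-fold or more, or 26.4%, beside 19.2% of all 8700 measured genes, and 1 was lower, beside 11.9%. The median log2 ratio was 0.76 over the members and 0.06 over all genes, and 47 of 53 were above 0 (52.6% of all genes). At 1.5-fold, 34 were higher (30.2% of all genes) and 1 lower (23.0% of all genes). The embryoid EPI-like profile rests on 108 cells and 720139 UMIs, and endoderm markers were found in it. Its 12 primitive endoderm markers summed to 386 CPM, with 7 of 12 at 20 CPM or more and 0 at zero, against 75.7 CPM and 0 of 12 in the blastocyst EPI-like cells. Without the 13 EPI-like cells that carried at least 5 UMIs of these markers, 20 members were at least 2-fold higher. The share of all genes was not counted for that set of cells, so this rise cannot be read as particular to the members.

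Measured in both libraries were 51 members, of which 5 were at least 2-fold higher in PrE-like than in EPI-like cells in each: Copa, Pdia3, Pdia5, Sec24d and Sec61a1. Over all genes this held for 7.34%. The 6 that passed in the blastocyst only, beside 4.87% of all genes, were Ssr1, Ssr3, Pdia6, Tmed7, Tmed9 and Copb1. The 8 that passed in the embryoid only, beside 8.83% of all genes, were Sec62, Sec63, Sec23a, Sec24a, Sec24c, Tmed2, Tmed5 and Tmed10. Whether the libraries differ for these genes was not tested, and all of them stood above 0 in both. Ssr3, for example, had a ratio of 0.92 (0.76 to 1.09) in the embryoid, at 818 against 430.5 CPM. No member was 2-fold apart in opposite directions, and Sec14l1 was 2-fold lower in both, at 30.4 against 63.9 CPM in the embryoid.

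Of the 14 genes higher in the embryoid PrE-like cells (19.2% of all genes), 4 were COPII genes (of 10 measured) and 4 p24 genes (of 9). Sec24a had the second largest of these ratios, 2.12 (1.46 to 2.98), at 99.7 CPM in PrE-like against 22.2 CPM (16 UMIs) in EPI-like cells. Sec24d stood at 77.5 against 25.0 CPM and Sec24c at 113.5 against 55.5 CPM. Tmed3, on chromosome 9 (89699206 to 89705068, minus strand), stood at 93.2 CPM in PrE-like and 18.1 CPM (13 UMIs) in EPI-like cells, a ratio of 2.31 (1.59 to 3.28). Without the EPI-like cells that carried endoderm markers its EPI-like level was 8.46 CPM (5 UMIs) and the ratio 3.32. Tmed10 was at 144 against 55.5 CPM and Tmed2 at 79.9 against 30.5 CPM. The isomerases Pdia5 (161 against 47.2 CPM) and Pdia3 (999 against 376 CPM) were higher by log2 ratios of 1.75 and 1.41, while Pdia6, at 353 against 230.5 CPM, had a ratio of 0.61 (0.39 to 0.85). Copz1 and Sec11c had ratios of 0.00, with intervals of -0.22 to 0.24 and -0.54 to 0.60.

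FIB-like cells of the embryoid, with 113 cells and 465331 UMIs, had a member share of 0.884%, and the unnamed cluster 5 (led by Slpi, Fbln2 and Vim, 327 cells) of 0.932%, both between the EPI-like and PrE-like shares. In the FIB-like cells Ssr3 stood at 814.5 CPM and Copa at 380.4 CPM there, near the embryoid PrE-like levels of 818 and 456 CPM. Pdia5 stood at 38.7 CPM (18 UMIs), below the 161 CPM of PrE-like and near the 47.2 CPM of EPI-like cells.

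PrE-like cells of the 2 libraries were close to each other for most members. Of 52 measured, 4 were at least 2-fold higher in the embryoid (15.4% of all genes) and 2 at least 2-fold lower (10.8% of all genes). At 1.5-fold, 8 were higher (26.1% of all genes) and 5 lower (20.8% of all genes). The median log2 ratio was 0.21 over the members and 0.04 over all genes, and 34 of 52 were above 0 (52.3% of all genes). The 4 higher by 2-fold in the embryoid were Tmed3, Sec24d, Copg2 and Tmed8. Tmed3 stood at 93.2 against 17.0 CPM (2.39, 2.11 to 2.82) and Sec24d at 77.5 against 23.8 CPM (1.66, 1.41 to 2.01). Copg2 stood at 40.2 against 17.5 CPM and Tmed8 at 24.1 against 10.9 CPM. The 2 lower by 2-fold were Sec11c, at 39.0 against 92.9 CPM (-1.23, -1.43 to -1.07), and Sec14l1, at 30.4 against 70.8 CPM.

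All 4 disulfide isomerases stood lower in the embryoid PrE-like cells, by less than 2-fold, where 52.3% of all genes stood higher. Pdia4 was at 77.6 against 151 CPM (-0.95, -1.10 to -0.83), Pdia6 at 353 against 648 CPM (-0.87, -0.94 to -0.81), Pdia5 at 161 against 234 CPM and Pdia3 at 999 against 1131 CPM. Genes of the ER folding and ER stress lists varied in direction. Of 24 measured ER folding genes 1 was at least 2-fold higher and 3 lower (median -0.20), and of 17 ER stress genes 1 was higher and 3 lower (median -0.04), beside 15.4% and 10.8% of all genes. Hspa5 stood at 1394 against 2440 CPM, Creld2 at 59.96 against 230.6 CPM and Sdf2l1 at 36.4 against 131 CPM. Creb3l1, a membrane-bound factor of the secretory pathway, stood higher in the embryoid at 543 against 19.9 CPM. So did Kdelr3, a receptor that returns ER proteins, at 401 against 113 CPM, but it belongs to the ER exit list. In that list 4 of 28 measured genes were at least 2-fold higher and 0 lower (median -0.03), beside 15.4% and 10.8% of all genes. The genes of these lists named here were picked as examples.

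**Figure D3:**
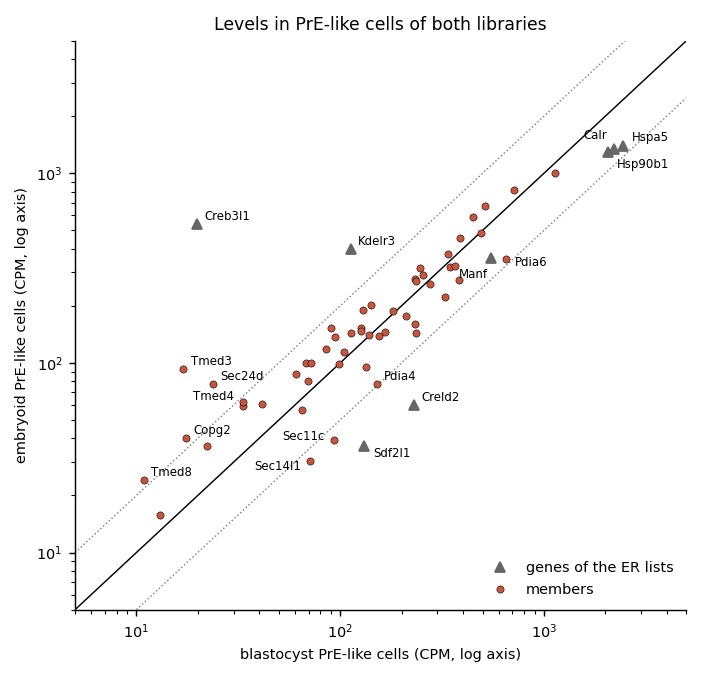
CPM in PrE-like cells of the blastocyst (horizontal log axis) and of the embryoid (vertical log axis) for the members with a mean of at least 10 CPM (circles) and 8 genes of the ER lists picked as examples (triangles). The solid line marks equal levels and the dotted lines 2-fold. Most members lie between the dotted lines, with Tmed3, Sec24d, Copg2 and Tmed8 above and Sec11c and Sec14l1 below.

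Thinned to 2000 UMIs, a Tmed3 UMI was present in 15.7% of embryoid PrE-like cells (14.5 to 16.9) and 2.68% of blastocyst PrE-like cells (1.34 to 4.74), and a Sec24d UMI in 15.0% (13.8 to 16.2) and 4.87%. In blastocyst TE-like cells, which had almost none of either RNA, the Tmed3 share was 0.275% (0.00696 to 1.52). Unthinned, the Tmed3 shares were 36.4% in embryoid PrE-like, 13.2% in blastocyst PrE-like and 1.33% in TE-like cells, at median depths of 4987, 9410 and 8606 UMIs, and the Sec24d shares were 31.9%, 17.0% and 0.266%.

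EPI-like cells of both libraries were also close. Of 52 measured members, 3 were at least 2-fold higher in the embryoid (11.8% of all genes) and 1 lower (8.87% of all genes). The median log2 ratio was 0.13, and 31 of 52 were above 0 (52.0% of all genes). At 1.5-fold, 11 were higher (23.2% of all genes) and 4 lower (18.8% of all genes). Sec24d stood at 25.0 CPM (18 UMIs) in the embryoid against 3.42 CPM (9 UMIs) in the blastocyst, Tmed3 at 18.1 against 2.66 CPM and Spcs3 at 157 against 62.4 CPM. Sec14l1 was lower, at 63.9 against 145 CPM. Leaving out the 13 embryoid EPI-like cells with endoderm markers brought Tmed3 to 8.46 CPM (5 UMIs), left Sec24d at 23.7 CPM and Spcs3 at 159 CPM, and gave 3 members at least 2-fold lower. The same step brought the collagen gene Col4a1 from 339 to 38.9 CPM and Sparc from 768 to 172.5 CPM in those cells. The share of all genes 2-fold lower was not counted after this step.

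Within the embryoid, 8 clusters had primitive endoderm as their best marker class: the 6 PrE-like clusters, the unnamed cluster 1 (led by Nepn, Rbp4 and Tff3, 963 cells) and the unnamed cluster 10 (led by Lgals3, Krt6a and Anpep, 89 cells), which had almost no mitochondrial RNA, with a median of 0.206% of UMIs. In cluster 1, 9 of 12 primitive endoderm markers were high. It stayed unnamed because its leading genes held the trophectoderm marker Tspan8 and no primitive endoderm marker. The summed members were highest in cluster 3 (led by Frzb, Sfrp5 and Fst), with 1.247% of UMIs, and in cluster 4 (led by Ctgf, F3 and Gkn2), with 1.201%. They were lowest in cluster 7 (1.020%), a shallow cluster led by Acta1, cluster 0 (1.029%), led by the cell cycle genes Ccnb1, Hmmr and Cdc20, and cluster 6 (1.039%), led by Apoc2, Cubn and Apoa1. Of 53 measured members, 11 were at least 2-fold apart between their highest and lowest cluster, beside 51.4% of all genes. Without cluster 10, a step chosen after seeing the data, 6 of 54 were, beside 31.4% of all genes: Sec11c, Pdia5, Sec22c, Tmed1, Tmed4 and Sec14l2. The lowest level was in cluster 10 for 18 of the 53, beside 26.9% of all genes. Tmed1, the most spread, had 3.13 CPM (1 UMI) there and 21.01 CPM (49 UMIs) in cluster 4.

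Pdia5 had the next widest range. Its level was 274 CPM (253 to 296) in cluster 4, 202 CPM in cluster 3, 199 CPM in cluster 2 (led by Dab1, Myl9 and Rps6ka6), 109 CPM in cluster 0 and 82.5 CPM (71.0 to 95.3) in cluster 6. Among the PrE-like clusters, Tmed3 ran from 68.6 CPM in cluster 6 to 125 CPM in cluster 4, and Sec24d from 58.0 CPM in cluster 0 and 60.5 CPM in cluster 6 to 110.2 CPM in cluster 3. Sec11c ran the other way, with 52.0 CPM in cluster 6 and 51.7 CPM in cluster 0 against 22.7 CPM in cluster 4. Of the 53 members, 13 were highest in cluster 3 (8.06% of all genes) and 13 in cluster 4 (14.6% of all genes). Without cluster 10 these counts were 19 (13.5% of all genes) and 15 (23.2% of all genes) of 54.

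**Figure D4:**
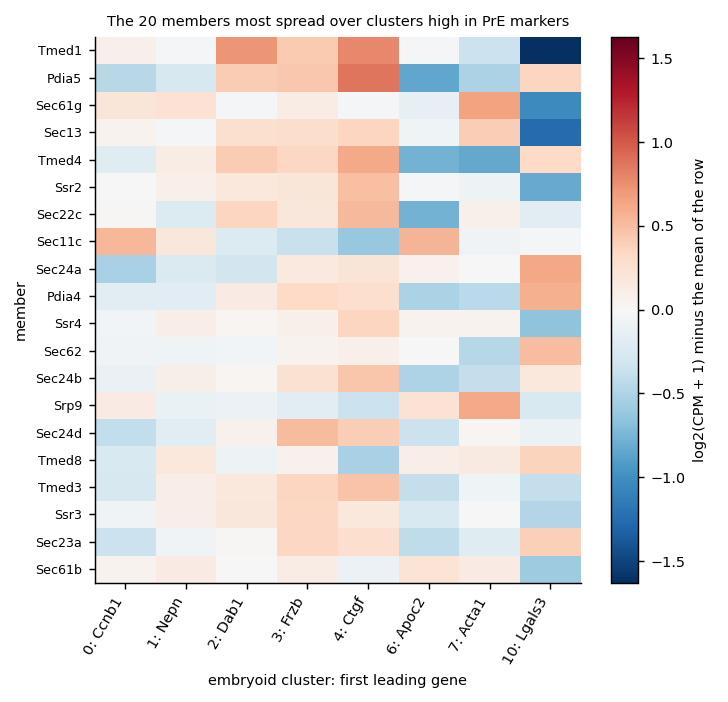
Log2(CPM + 1) minus the mean of the row (colour) for the 20 members with the widest range over the 8 embryoid clusters whose best marker class was primitive endoderm (columns, named by number and first leading gene). Pdia5 runs from 82.5 CPM in cluster 6 to 274 CPM in cluster 4, and Sec11c runs the other way; members are ordered by their range, so the plot shows the most variable ones by choice.

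The other genes of the pathway were taken from 7 lists and described by counts. In blastocyst PrE-like over EPI-like cells, 16 of 24 measured ER folding genes were at least 2-fold higher (median log2 ratio 1.34), beside 12.9% of all genes, and 0 were lower. P4hb, another disulfide isomerase and a subunit of prolyl 4-hydroxylase, stood at 1176 against 297.5 CPM, and Txndc5 at 175 against 23.2 CPM. Of 17 ER stress sensors, factors and degradation genes 9 were higher, with Xbp1 at 302 against 68.9 CPM. Of 27 genes of ER exit, Golgi return and cargo reception 11 were higher, with the cargo receptor Surf4 at 153 against 25.9 CPM and Mia3, which helps to load collagen, at 170.3 against 49.5 CPM. Of 16 further targeting, translocation and N-glycosylation genes 5 were higher. Clathrin and its adaptors, the coats of later steps, had the lowest median of these 5 lists: 1 of 14 was higher (Cltc, 1258 against 593 CPM), with a median of 0.43. In embryoid PrE-like over EPI-like cells the counts were 8 of 24 for ER folding, 12 of 16 for ER stress, 14 of 28 for ER exit and Golgi return, 6 of 17 for targeting and glycosylation and 6 of 14 for clathrin, beside 19.2% of all genes.

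In TE-like cells the clathrin and adaptor genes as a list did not share the low levels of the isomerases. Of 13 measured in TE-like over EPI-like cells, 3 were at least 2-fold higher and 1 lower, beside 14.1% and 21.9% of all genes. In PrE-like over TE-like cells 1 of 14 was higher and 1 lower, beside 19.8% and 10.7% of all genes. Ap1m2, the adaptor subunit of epithelial cells, stood at 186 CPM in TE-like, 83.9 CPM in PrE-like and 61.3 CPM in EPI-like cells, and Ap1s1 at 203, 104 and 65.4 CPM. Over this list the median PrE-like over TE-like ratio was -0.25, whereas it was 1.72 over the ER folding list. In the latter 17 of 24 genes exceeded the TE-like level by 2-fold or more, beside 19.8% of all genes.

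By summed share of UMIs, basement membrane cargo was higher in PrE-like than in EPI-like cells of both libraries. The summed visceral type cargo was so in the embryoid only. The 10 basement membrane genes took 1.482% of UMIs in blastocyst PrE-like, 0.190% in EPI-like and 0.0676% in TE-like cells. Col4a1 stood at 2417, 30.4 and 7.81 CPM in these classes, and Lamb1 at 1586, 36.1 and 22.6 CPM. In the list 7 of 10 genes were at least 2-fold higher in PrE-like than in EPI-like cells, and 2, Fn1 and Nid2, were lower. Over all genes the shares were 12.9% and 9.46%. In the embryoid 7 of 10 were higher and 1 lower, beside 19.2% and 11.9% of all genes. The visceral type cargo list took 0.0904% of UMIs in blastocyst EPI-like, 0.0667% in PrE-like and 0.0184% in TE-like cells, and 0.271% in PrE-like against 0.0687% in EPI-like cells of the embryoid. That embryoid PrE-like class leaves out the unnamed cluster 1 (963 cells), whose leading genes include Nepn, Rbp4, Tff3, Apom and Apob of this list. Gene by gene, the blastocyst order differed from that of the summed share. Of its 3 measured genes, 2 were at least 2-fold higher in PrE-like than in EPI-like cells, beside 12.9% of all genes. In the embryoid 6 of 7 were, beside 19.2% of all genes. There the thyroxine carrier Ttr stood at 303.5 CPM in PrE-like and 19.4 CPM in EPI-like cells. Over the 15 clusters with a class name the log2 summed CPM of the members correlated with that of the basement membrane genes (Pearson r 0.977), with that of the ER folding list (0.951) and less with that of the clathrin list (0.409). These clusters come from 2 libraries, several share a class and all share their library's depth, so the values are descriptions. The cargo level did not order clusters of one class in each case: blastocyst cluster 3 had more member RNA than cluster 0 (1.197% and 1.030%) and less basement membrane RNA (1.318% and 1.550%).

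**Figure D5:**
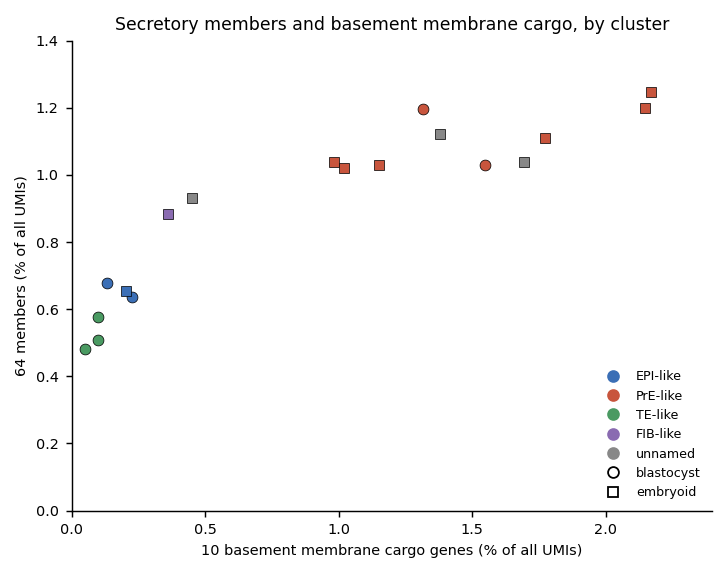
UMIs of the 64 members (vertical axis) against UMIs of the 10 basement membrane cargo genes (horizontal axis), both as percentages of all UMIs, for each cluster of the blastocyst (circles) and embryoid (squares) libraries, coloured by class. TE-like and EPI-like clusters lie at the lower left, and embryoid clusters 3 and 4, with 2.171% and 2.146% cargo, at the upper right.

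Among 3897 genes with a mean of at least 50 CPM outside the 64, those whose log2(CPM + 1) was most correlated with the summed members over the same 15 clusters were Stt3a (r 0.979), Slc25a22, P4hb, Canx, Plod3, P4ha1, Cst3, Hdlbp, Col4a1 and Gata4 (0.956). Stt3a is a catalytic subunit of the oligosaccharyltransferase, Canx an ER chaperone for glycoproteins, and P4hb, Plod3 and P4ha1 belong to enzymes that modify collagen. Stt3a ran from 69.0 to 310 CPM over the clusters, whereas Gata4, a primitive endoderm factor and one of the class markers, ran from 2.09 to 729 CPM. Gata4 was used to name the classes, so its place in this order is partly set by the naming.

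Exons of 21 members overlap a gene on the opposite strand and those of 4 a gene on the same strand, by GENCODE M21. Whether the counting used strand is not given in the sources used here, so reads of such pairs could be mixed. Tmed5 shares exons with Mtf2, at 187 CPM in blastocyst PrE-like and 403 CPM in TE-like cells, and Copa with Ncstn, at 75.9 and 71.4 CPM; Copa and Ncstn were both higher in embryoid PrE-like than in embryoid EPI-like cells (Ncstn 173 against 58.3 CPM).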

How the data were processed

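The deposited files give raw UMI counts per gene symbol and cell barcode, in long form, per the file headers; mm10 is the genome build in the submitters' processing notes, which also list, in no order, STAR 2.7.1a, Subread with featureCounts 1.6.4, UMI-tools 1.0.1 and bcl2fastq 2.19.1.403. Settings, annotation, strand and cell calling were not given in the sources used here. There were 28923930 UMIs in the embryoid and 11047555 in the blastocyst file. Barcodes with at least 1000 UMIs, 500 genes and at most 25% mitochondrial UMIs were kept. Scrublet (scanpy 1.11.5) then called 17 blastocyst doublets (1.55%), which were removed, and 0 embryoid doublets. No embryoid doublets were therefore removed, and any that the caller missed remain. Each library was clustered on its own (2000 variable genes without the members and lists, 30 principal components, 20 neighbours, Leiden with leidenalg 0.10.2 at resolution 1.0, seed 1; scipy 1.17.1, numpy 2.4.6 and pandas 2.3.3 under Python 3.11.15).

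Clusters were named from 70 matched markers of 8 classes. A marker was high at 20 CPM or more and at least 0.333 of its highest cluster. A name needed 3 high markers and at least 0.5 of the class's markers high. A cluster stayed unnamed where its 10 leading genes held more markers of another class, where the median cell's mitochondrial share was below 0.1 of that in its library, or where it was shallow with no leading marker. Marker levels were known when this rule was written, and the condition of 0.5 was added after 1 unnamed embryoid cluster had taken a primitive streak name. The members and lists were chosen with earlier results of these data known. The 7 lists hold 130 matched genes and serve as description only.

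The ratio and count steps were tested on simulated data with known fold changes. Levels carry exact Poisson 95% intervals and shares exact Clopper-Pearson 95% intervals; a ratio interval is that of the counts, without the added 1 CPM. A count of 0 was read as up to its upper interval bound. Any member could be named; full values were meant for those at least 2-fold apart with the largest ratios in each role (up to 4 per direction) and for the paralogue families Sec11, Sec22, Sec23, Sec24, Sec31, Sec61a, Copg, Copz and Srp54. The 10 genes most like the members were ranked by Pearson correlation. Alternatives were another pseudocount, depth and mitochondrial limits, scaling, resolution, doublet handling, fold and level filters. Gene positions are from GENCODE M21 (GRCm38) and promoter sequences from RefSeq (GRCm38.p6).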

Additional observations from a re-analysis of the deposited data

Results flagged for a closer look

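Ssr2 and Srp19 differed in direction between the libraries in the PrE-like over EPI-like comparison, with intervals on opposite sides of 0. Ssr2, a TRAP subunit, had a log2 ratio of 0.74 in the embryoid (0.57 to 0.91; 668 against 400 CPM) and -0.12 in the blastocyst (-0.22 to -0.03; 513 against 559 CPM). Srp19, a subunit of the signal recognition particle, had a ratio of -0.27 in the embryoid (-0.46 to -0.07; 274.5 against 330.5 CPM) and 0.27 in the blastocyst (0.15 to 0.40; 382 against 316 CPM). The difference between the libraries was not tested, since each has 1 library, and the intervals cover counting error only.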

How the results depend on the processing

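Of 68 member ratios of at least 2-fold, all 605 values under the alternatives kept their direction, and 54 moved by more than their counting interval. Several settings could not reverse such a ratio. An equal added CPM keeps the sign, and the scaling shifted log2 ratios by at most 0.34. The 2 other resolutions left the cell numbers of the blastocyst classes and of the embryoid EPI-like class unchanged. The kept direction was thus partly set in advance. The depth limit, the 2 other resolutions and keeping called doublets changed no count by over 1.5 times. With a fold of 1.5 the members higher and lower were 31 in blastocyst PrE-like over EPI-like, 34 and 1 in PrE-like over TE-like, 3 higher in TE-like over EPI-like, 34 higher in embryoid PrE-like over EPI-like, 8 and 5 between PrE-like and 11 and 4 between EPI-like cells of both libraries. With 10 CPM added, 0 were lower in PrE-like over EPI-like cells of either library, and 2 were higher and 1 lower between the PrE-like cells. At most 10% mitochondrial UMIs also gave 0 lower in both PrE-like over EPI-like comparisons, 5 higher and 3 lower between EPI-like cells, and member shares of 0.662%, 1.115% and 0.538% in blastocyst EPI-like, PrE-like and TE-like and 1.112% in embryoid PrE-like cells; averaging over cells gave 0.641% and 1.038% in blastocyst EPI-like and PrE-like cells. The mitochondrial limit left 533 of 1080 blastocyst cells, with 116 TE-like cells in place of 376. Under it the embryoid PrE-like class had 4183 cells in place of 3728, so the classes were made up differently. Without the level filter 2 were lower in both PrE-like over EPI-like comparisons, PrE-like over TE-like and EPI-like across libraries. Median-of-ratios scaling gave 11 higher and 1 lower in PrE-like over TE-like and 3 and 4 in TE-like over EPI-like, and 6 members in place of 10 at least 2-fold above both other blastocyst classes. Thinned to 1000 UMIs, shares with a Pdia5 UMI were 20.1% and 14.9% in blastocyst and embryoid PrE-like and 2.78% in embryoid EPI-like cells; with a Sec24d UMI 2.01%, 7.14% and 0.926% in these, and 0% in blastocyst EPI-like cells; with a Tmed3 UMI 9.23% in embryoid PrE-like cells. The cause of these moves was not tested beyond what each setting does. Where the text gives no share over all genes for an alternative, none was counted. Of the alternatives chosen after seeing the data, counting the cluster led by Nepn, Rbp4 and Tff3 as PrE-like gave 0 members lower in the embryoid, leaving out the cluster led by Acta1 moved no count by over 1.5 times, and leaving out EPI-like cells with endoderm markers gave an embryoid EPI-like share of 0.608% and 3 members lower between EPI-like cells. Leaving out embryoid cluster 10, also chosen after seeing the data, left 6 in place of 11 members 2-fold apart over the endoderm clusters. No paired analysis was possible because each group has 1 library. Depth limits members under about 10 CPM, above all in the 108 embryoid EPI-like cells.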
